A study of Mus musculus with 42 samples.

Results

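The replication-dependent histone genes were followed in mouse spleen over 14 days after injection of CpG oligodeoxynucleotides. The members were all genes on the array whose symbol follows the clustered histone nomenclature (H1f1 to H1f6, H2ac, H2bc, H3c and H4c with a number). There were 52 of them among 15277 named genes: 5 of the linker histone H1, 13 of H2A, 13 of H2B, 10 of H3 and 11 of H4. Total spleen RNA came from female wild-type BALB/c mice, whose age the labels do not give, and was measured on 42 two-colour arrays. Mice were untreated (6 arrays) or received 400 µg of oligodeoxynucleotide (ODN) by intraperitoneal injection. CpG ODN, a mixture of ODN 1555 and 1466, was sampled at 3, 9, 24 and 72 h and at 5, 7, 9 and 14 days. Control ODN, a mixture of ODN 1612 and 1471, was sampled at 3 h. Each of these 9 groups had 4 arrays. Every array set spleen cDNA against cDNA of one common reference, pooled from B and T lymphocytes, macrophages, embryo, kidney, liver, mammary gland, muscle, skin and testis. A value is the log2 ratio of spleen to that reference, so it compares a gene between groups and not with another gene.

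Replication-dependent histones package DNA that has just been copied. H2A, H2B, H3 and H4 form the core of the nucleosome and H1 sits on the linker DNA, and their many near-identical genes lie in clusters. They are transcribed mainly in S phase, and unlike nearly all other mRNAs theirs end in a stem-loop and not in a poly(A) tail. In spleen, dividing lymphocytes and the erythroid and myeloid precursors of mouse red pulp are cells in which such mRNAs are made. Both cDNAs of each array were primed with oligo(dT), per the labels, so the ratios depend on histone transcripts that oligo(dT) can prime, and the share of these among all histone transcripts was not measured.

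The promoters below show the members the results turn on: H2bc12 and H3c2, which rose most or nearly so, H2bc8, which did not rise, H1f4 and H4c6 as the linker and H4 examples, and H2ac19, which has a near-identical neighbour. Each is the 300 bases from 250 before to 50 after the annotated start (RefSeq, mouse build GRCm38.p6), written 5′ to 3′ in the gene's direction. Capitals mark the letters searched on either strand. These were CCAAT of the CCAAT box, the TATA box written TATAAA, the octamer ATTTGCAT known from H2B genes, AAACACA known from H1 genes, and GGTCC found in the H4 element.
H2bc12 (chr13:22035571-22035870, plus strand): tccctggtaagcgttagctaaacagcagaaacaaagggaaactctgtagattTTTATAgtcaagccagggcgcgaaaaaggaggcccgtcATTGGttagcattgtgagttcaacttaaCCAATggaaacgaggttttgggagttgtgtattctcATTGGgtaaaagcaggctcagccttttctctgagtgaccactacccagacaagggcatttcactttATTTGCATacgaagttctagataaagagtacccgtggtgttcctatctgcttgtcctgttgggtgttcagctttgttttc
H2bc8 (chr13:23571150-23571449, plus strand): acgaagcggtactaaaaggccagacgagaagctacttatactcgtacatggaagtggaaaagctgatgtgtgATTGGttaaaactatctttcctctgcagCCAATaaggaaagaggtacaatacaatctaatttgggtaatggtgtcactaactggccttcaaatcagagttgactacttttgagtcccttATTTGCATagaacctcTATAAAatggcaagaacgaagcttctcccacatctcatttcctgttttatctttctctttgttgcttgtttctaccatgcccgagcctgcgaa
H1f4 (chr13:23622509-23622808, minus strand): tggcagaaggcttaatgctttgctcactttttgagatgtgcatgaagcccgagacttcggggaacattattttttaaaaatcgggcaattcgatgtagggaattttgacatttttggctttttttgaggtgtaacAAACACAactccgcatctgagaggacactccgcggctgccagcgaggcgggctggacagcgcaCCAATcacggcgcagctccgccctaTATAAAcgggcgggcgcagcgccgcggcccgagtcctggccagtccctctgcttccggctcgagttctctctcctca
H3c2 (chr13:23752095-23752394, plus strand): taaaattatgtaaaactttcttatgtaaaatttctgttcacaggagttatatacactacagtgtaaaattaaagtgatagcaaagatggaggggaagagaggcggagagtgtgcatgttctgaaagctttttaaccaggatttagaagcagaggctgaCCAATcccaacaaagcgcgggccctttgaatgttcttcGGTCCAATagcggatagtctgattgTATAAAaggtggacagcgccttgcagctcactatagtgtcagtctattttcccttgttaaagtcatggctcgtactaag
H4c6 (chr13:23551619-23551918, minus strand): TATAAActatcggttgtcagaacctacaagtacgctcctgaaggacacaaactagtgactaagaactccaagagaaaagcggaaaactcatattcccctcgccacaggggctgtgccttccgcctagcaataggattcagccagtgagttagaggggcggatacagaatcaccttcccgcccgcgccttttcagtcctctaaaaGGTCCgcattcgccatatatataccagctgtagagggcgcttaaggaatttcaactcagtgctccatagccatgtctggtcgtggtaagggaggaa
H2ac19 (chr3:96240325-96240624, minus strand): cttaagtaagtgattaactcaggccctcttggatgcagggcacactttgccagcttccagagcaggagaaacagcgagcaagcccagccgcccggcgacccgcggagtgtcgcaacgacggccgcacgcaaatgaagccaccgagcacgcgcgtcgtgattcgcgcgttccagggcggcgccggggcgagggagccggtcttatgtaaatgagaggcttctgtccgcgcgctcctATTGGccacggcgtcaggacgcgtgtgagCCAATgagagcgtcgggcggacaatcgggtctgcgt

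RefSeq windows were found for 48 of the 52 members, 43 on chromosome 13 and 5 on chromosome 3. CCAAT stood in 41 of 48 windows (85.4%) against 37.9% of all 27025 mouse promoter windows, and TATAAA in 30 (62.5%) against 14.2%. The families differed in the other letters. The octamer occurred in 6 of 13 H2A and 5 of 12 H2B windows against 1.75% of all promoters, AAACACA in 4 of 5 H1 windows against 7.14%, and GGTCC in 9 of 10 H4 windows against 45.4%. CCAAT was found in all windows of H1, H2A, H2B and H3 and in 3 of 10 of H4. In the H3c2 window the H4 letters and the second CCAAT box overlap. H2A and H2B genes formed 7 head-to-head pairs with starts 164 to 281 bases apart, so that one intergenic stretch holds both promoters. The windows of such partners overlap and both strands were searched, so the counts above can hold one site for both partners. H2bc12 is paired with H2ac12 and H2bc8 with H2ac8. The first capitals of the H2bc12 window spell TATAAA on the other strand, the strand of H2ac12. They lie downstream of the annotated H2ac12 start and not before it, so they are not placed as a TATA box of that gene. The windows of H2ac18 and H2ac19 share an identical run of 219 bases. A match is a description of letters and not of factor binding.

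The arrays carried the marks of spleen: in untreated mice the B-cell gene Cd79a had a log2 ratio of 5.64 ± 0.55 (SD, n = 6), the globin Hbb-b1 6.83 ± 0.78 and the antigen-presentation gene H2-Aa 6.79 ± 0.12. The files give ratios without the signal behind them. Between 173 and 1740 of 30601 features were missing on an array, and 8 arrays lacked over 1000. Members were represented by 56 features, and 47 members had a value on all 42 arrays. Database numbers in the array titles fall into 10 runs. CpG 3 h is the only group that shares a run with untreated arrays (2 of its arrays and 1 untreated array), so for the other groups run and treatment cannot be told apart in a comparison with untreated. Array 3 of CpG 72 h and array 1 of control ODN were low in many histone genes (member means of 0.68 and 0.40 against 1.21 to 1.37 and 0.91 to 1.34 on the other arrays of their groups), and the results that rest on them are given with and without them, for means, gene pairs and the added comparisons as an alternative chosen after the data were seen. In whole spleen, more cells that express a gene and more RNA per cell cannot be told apart.

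Few histone genes were called in the first 3 days after CpG ODN. The median difference from untreated over the members was -0.36 at 3 h, -0.26 at 9 h, -0.41 at 24 h and 0.13 at 72 h. Most members were higher at 5, 7 and 9 days, and 1 was called at 14 days. The mean log2 ratio of the 47 members measured on all arrays was 0.96 ± 0.15 in untreated spleens (SD, n = 6) and 0.99 ± 0.44 after control ODN (n = 4; 1.19 ± 0.24 without array 1, n = 3). It was 0.56 ± 0.24 at 3 h and 0.68 ± 0.32 at 9 h, where array 3 was at 0.22 and the others at 0.745 to 0.92. At 24 h it was 0.54 ± 0.11 and at 72 h 1.13 ± 0.31 (1.27 ± 0.085 without array 3, n = 3). It reached 1.79 ± 0.20 at 5 days, 2.10 ± 0.070 at 7 days and 2.18 ± 0.37 at 9 days and was 1.12 ± 0.34 at 14 days (n = 4 each). The 12 arrays of 5 to 9 days lay between 1.54 and 2.65, above all 6 untreated arrays (0.75 to 1.18). In limma's F test of all CpG groups against untreated, 49 of 52 members passed an adjusted p of 0.05, and so did 63.5% of the 14557 genes tested. H1f6, H2ac18 and H3c7 were not called.

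**Figure D1:**
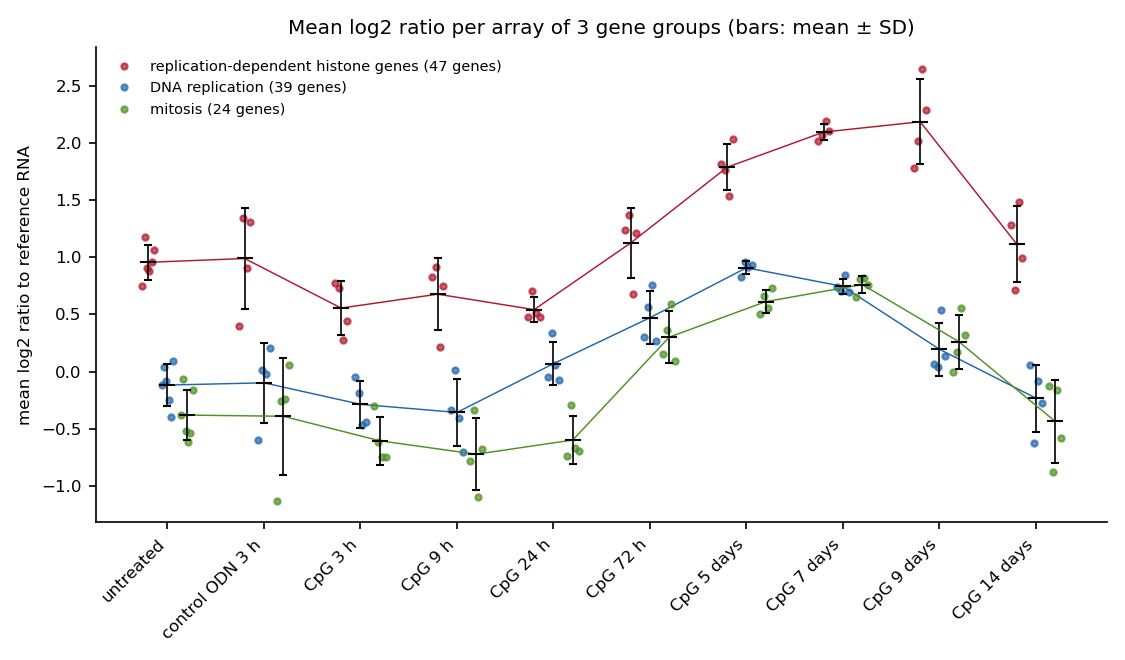
Mean log2 ratio per array (vertical axis) of the 47 replication-dependent histone genes, 39 DNA replication genes and 24 mitosis genes measured on all arrays, by group (horizontal axis). Points are arrays and bars the mean ± SD. The histone mean is 0.96 in untreated spleens, 2.10 at 7 days and 2.18 at 9 days. The DNA replication mean is -0.118, 0.745 and 0.195 in the same groups.

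In untreated spleens the members spanned a wide range of ratios to the reference. The highest ratios of each family were those of H3c15 (2.80 ± 0.31), H4c1 (2.49 ± 0.46), H1f4 (2.45 ± 0.32), H2ac15 (1.17 ± 0.24) and H2bc3 (1.15 ± 0.25; SD, n = 6). The lowest were H1f2 (-0.20 ± 0.14), H3c6 (-0.098 ± 0.16), H2bc6 (-0.097 ± 0.26, n = 5), H2ac18 (0.10 ± 0.41) and H4c8 (0.84 ± 0.33). These ratios depend on how much of each transcript the reference pool holds and do not rank the genes by abundance.

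At 3 h after CpG ODN, 4 members were lower than in untreated spleens and 0 were higher. Of all genes tested, 3.93% were lower and 7.7% higher in the same comparison (limma, adjusted p below 0.05). The 4 were H1f4 (difference -1.04 ± 0.33, SE; adjusted p = 0.0271), H2bc7 (-0.83 ± 0.27; 0.0355), H2bc8 (-0.60 ± 0.18; 0.0233) and H2ac6 (-0.57 ± 0.17; 0.0179), the first a linker and the others core histone genes. The untreated arrays of H1f4 ran from 1.97 to 2.81 with a median of 2.44, and the 3 h arrays read 2.04, 1.36, 0.73 and 1.52. One 3 h array thus lay within the untreated range. The median difference over the 52 members was -0.36, against -0.023 over all genes, and 51 of the 52 differences were negative. The members were measured on the same arrays and many moved together, so their signs are not independent results. The calls rest on single arrays: 0 remained without CpG 3 h array 3, 1 without untreated array 2, and 2 without CpG 3 h array 2 or 4 or untreated array 3 or 5. Within the only run that holds both groups (2 arrays of 3 h and 1 untreated), 44 of 47 members were lower, with a median difference of -0.87. That untreated array had the highest member mean of its group (1.18, the others 0.75 to 1.06). The 2 arrays of 3 h had the lowest of theirs (0.27 and 0.44, the others 0.77 and 0.735). The size of this difference thus rests on the extremes of both groups.

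Control ODN gave a different picture at the same time. H1f2 alone was higher than in untreated spleens (0.86 ± 0.24; limma adjusted p = 0.0423) and 0 were lower, where 2.45% and 1.07% of all genes were, and the median difference was 0.00075 (0.22 without control ODN array 1). The 4 arrays of H1f2 overlapped the untreated range, and the call was lost without control ODN array 1, 2 or 3 (adjusted p = 0.203, 0.102 and 0.167) or untreated array 1, 2, 5 or 6. Against control ODN, 10 members were lower at 3 h after CpG ODN and 0 higher, where 11.5% of all genes were lower and 9.23% higher. They were H1f2, H1f4, H2ac6, H2bc4, H2bc7, H2bc12, H2bc22, H3c4, H3c11 and H4c9, and H1f2 differed most (-1.55 ± 0.27; adjusted p = 4.58e-05). Its control ODN arrays read 1.21, 0.92, 0.77 and -0.24 and its CpG arrays -1.05, -0.72, -0.67 and -1.09, so the groups did not overlap. The count moved with the arrays, to 15 without control ODN array 1, 4 without CpG 3 h array 3, 5 without control ODN array 3 or 4, and 6 without CpG 3 h array 4 or control ODN array 2. It was 5 when arrays were scaled to the same spread. Of the members 19.2% were lower.

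At 9 h no member was called by limma, with 7 below an unadjusted p of 0.05, while 5.07% of all genes were called higher and 3.45% lower. The median difference was -0.26, and -0.14 without CpG 9 h array 3. The member mean of that array was 0.22, against 0.745 to 0.92 on the other 9 h arrays. The count became 1 without untreated array 3 or 6 or CpG 9 h array 2 or 4. At 24 h, 0 members were higher and 2 lower (8.03% and 2.87% of all genes). H2bc8 was down by -1.01 ± 0.18 (adjusted p = 0.000191) and H2bc7 by -0.83 ± 0.27 (adjusted p = 0.0383), and the median difference was -0.41. Untreated arrays of H2bc8 ran from 0.11 to 0.97 with a median of 0.58, and the 24 h arrays read -0.33, -0.44, -0.38 and -0.50, all below them. H2bc7 lost its call without untreated array 2, 3, 4, 5 or 6 or CpG 24 h array 1, 2 or 3. With run as a fixed block 1 member was called at 3 h, 0 at 9 h and 0 at 24 h, with median differences of -0.87, -1.02 and -1.06. The 9 h and 24 h groups share no run with untreated, so these values reach them only through the 3 h arrays and the 1 untreated array that shares their run. That untreated array had the highest member mean of its group (1.18).

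At 72 h the H2A mean was 0.88 ± 0.13 against 0.56 ± 0.22 in untreated spleens, and the H2B mean 0.56 ± 0.57 against 0.69 ± 0.15, with H2B array 3 at -0.29. Without that array the H2B mean was 0.84 ± 0.072 (n = 3), above untreated, and the H2A mean 0.94 ± 0.092. Called against untreated were H2ac1 (1.05 ± 0.34; adjusted p = 0.0319) and H4c11 (0.86 ± 0.27; 0.0267), both higher, and H2bc8 (-0.93 ± 0.18; 0.000703), lower, where limma called 8.94% of all genes higher and 6.01% lower. H2ac1, an H2A gene whose transcripts are known from testis, read 1.22, 1.62, 2.53 and 1.28 at 72 h, above all untreated arrays (0.44 to 0.77). Without CpG 72 h array 3 neither H2ac1 (0.76; adjusted p = 0.186) nor H4c11 (0.62; 0.168) was called. The number called was 1 without CpG 72 h array 2, 5 without CpG 72 h array 4 or untreated array 2, and 15 with array weights. Against 24 h, 6 members were higher and 0 lower (3.6% and 1.9% of all genes): H2ac4, H2ac12, H2ac15, H2ac19, H2ac20 and H4c8, of which H2ac15 differed most (1.34 ± 0.30; adjusted p = 0.00382). Its 24 h arrays read 0.59, 0.79, 0.17 and 0.62 and its 72 h arrays 1.82, 2.19, 1.81 and 1.72, with no overlap. This count was 1 without CpG 72 h array 2, 10 without CpG 24 h array 2, 2 without CpG 24 h array 3 and 3 without CpG 24 h array 4. Without CpG 72 h array 3 the median difference from untreated over the members was 0.35 in place of 0.13.

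**Figure D2:**
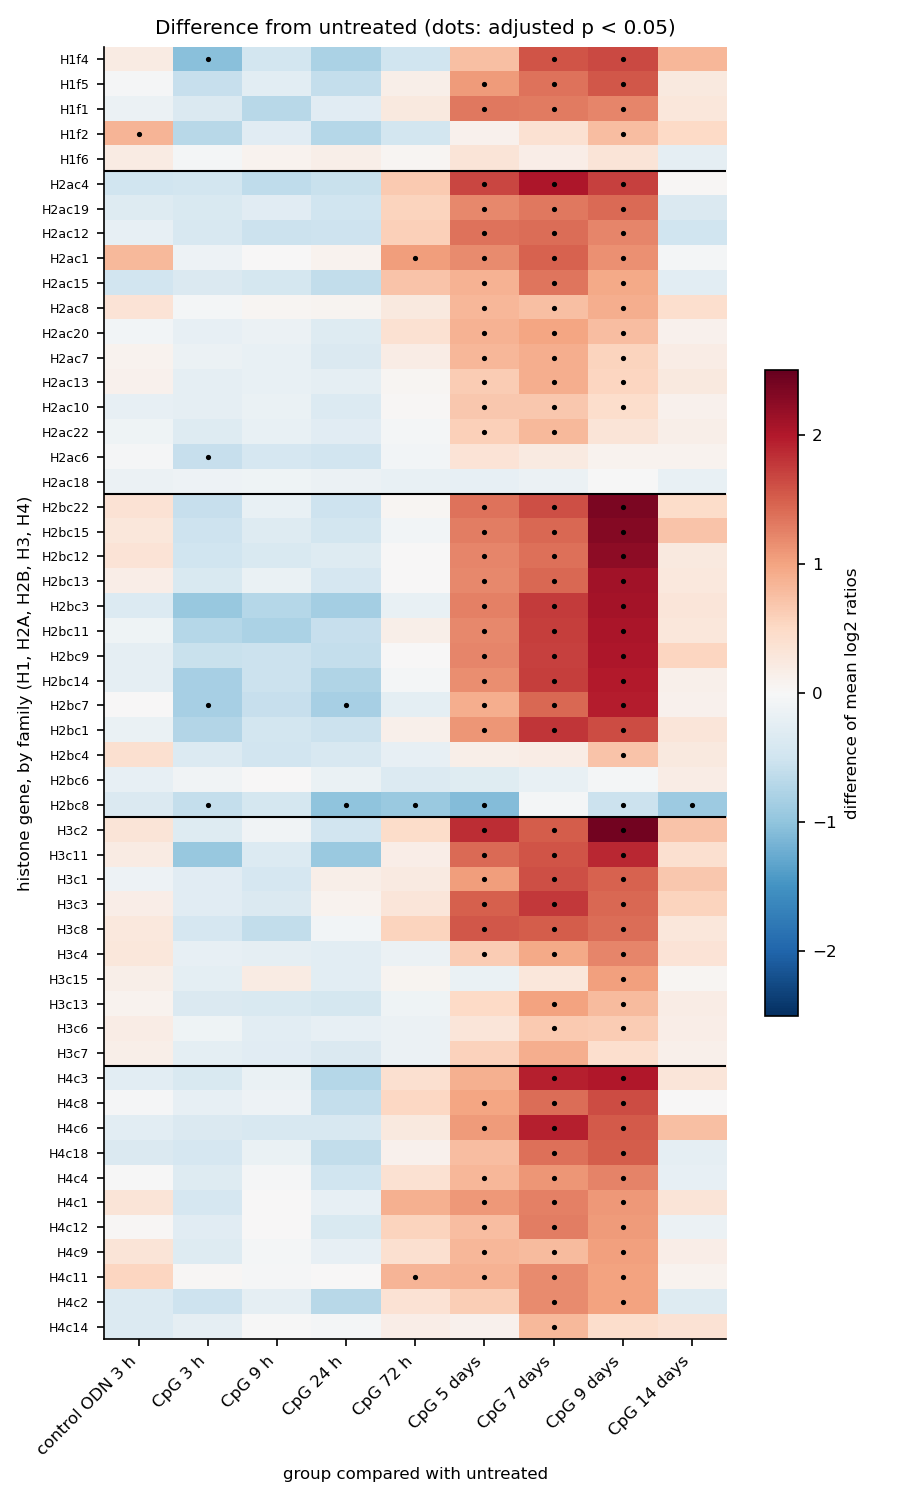
Difference of the mean log2 ratio from untreated (colour, red higher) for each of the 52 members (vertical axis, by family and ordered by the 9-day difference) in the 9 treated groups (horizontal axis). Dots mark an adjusted p below 0.05, and most members are dotted at 5, 7 and 9 days, while H2bc8 is below untreated at most times.

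From 5 to 9 days most members were higher than in untreated spleens. Limma called 36 of 52 higher and 1 lower at 5 days, where 17.5% of all genes were higher and 13.4% lower. At 7 days 43 were higher and 0 lower (8.68% and 6.89% of all genes), and at 9 days 44 were higher and 1 lower (8.4% and 5.12%). The median difference was 0.87, 1.31 and 1.22 at these times, against 0.0059, -0.024 and 0.0045 over all genes. These comparisons share the untreated arrays. The groups did not overlap for 27 of 50 members with all values at 5 days, 41 of 51 at 7 days and 34 of 50 at 9 days, higher each time, where 13.6%, 8.73% and 7.52% of all genes were. With run as a random block and the 47 members on all arrays, 32, 40 and 40 were higher. Leaving out any 1 array of the groups compared left 31 to 39, 41 to 43 and 33 to 45 members called at the 3 times.

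CpG 7 days, 14 days, 72 h and control ODN were all in the same run, and 37 members were higher at 7 than at 14 days and 0 lower, where limma called 10.8% of all genes in each direction. Of the 47 members on all arrays, 45 were higher at 7 days in this run, with a median difference of 1.02. Their signs come from the same arrays and are not independent. Against control ODN, a comparison added after the data were seen, 38 members were higher and 0 lower (10.2% and 14.6% of all genes), with a median difference of 1.17. Without control ODN array 1 there were 33 higher and 0 lower, with a median of 0.94. For 72 h the same comparison called 3 higher and 3 lower (7.61% and 9.3% of all genes), with a median of 0.15. Its calls were 0 higher and 2 lower without control ODN array 1 (median -0.047) and 4 higher and 1 lower without CpG 72 h array 3 (median 0.22). CpG 14 days had 2 arrays with over 1000 missing values, and without such arrays 10 members were called between 7 and 14 days, with a median difference of 0.74.

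The H2B genes had the largest median difference of the 5 families at 7 and 9 days. Of 13, 10 were higher at 5 days, 10 at 7 days and 11 at 9 days, with median differences of 1.19, 1.44 and 2.03. H2bc22 had untreated values from 0.27 to 0.88 with a median of 0.45 and 9-day values of 2.17, 2.79, 3.04 and 3.50, all far above them. The difference was 2.35 ± 0.23, or 5.09-fold (limma adjusted p = 4.07e-09). H2bc15 (2.30 ± 0.33), H2bc12 (2.23 ± 0.23), H2bc13 (2.11 ± 0.22), H2bc3 (2.08 ± 0.42), H2bc11 (2.03 ± 0.31), H2bc9 (2.03 ± 0.29), H2bc14 (1.98 ± 0.33) and H2bc7 (1.95 ± 0.27) were also called at 9 days. H2bc1, whose transcripts are known from testis, was highest at 7 days (1.78 ± 0.29). Of the 13 H2B genes, 10 had their highest group mean at 9 days and 1 at 7 days.

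Among the H3 genes, 6 of 10 were higher at 5 days, 8 at 7 days and 9 at 9 days. H3c2 had the largest difference of all members. Its untreated arrays ran from 0.28 to 1.32 with a median of 0.64, and its 9-day arrays read 2.82, 3.10, 3.44 and 2.88. The groups did not overlap, and the difference was 2.40 ± 0.29, or 5.29-fold (limma adjusted p = 4.19e-07). These values come from the feature that names H3c2 alone. A feature that names H3c10 and H3c2 did not rise, at 0.25 ± 0.14 at 9 days against 0.30 ± 0.24 in untreated spleens. One that names H2bc21 and H3c2 went from -0.10 ± 0.14 to 0.94 ± 0.22. H3c11 rose by 1.89 ± 0.34 at 9 days, H3c3 by 1.77 ± 0.29 and H3c1 by 1.61 ± 0.26 at 7 days, and H3c8 by 1.55 ± 0.30 at 5 days. H3c15, with the highest untreated ratio of the family, was at 2.65 ± 0.65 at 5 days and 3.08 ± 0.27 at 7 days against 2.80 ± 0.31 in untreated spleens, and was called at 9 days alone, with arrays at 3.41, 4.08, 3.81 and 4.04 and a difference of 1.03. With arrays scaled to the same spread (0.72; limma adjusted p = 0.0627) or quantile normalization (0.67; 0.06) it was not called. H3c6, with the lowest untreated ratio, rose by 0.65 at 7 days.

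All 11 H4 genes were higher at 7 days, 7 of them at 5 days and 10 at 9 days. H4c3 read 2.72, 3.00, 4.00 and 3.81 at 9 days against 0.81 to 1.88 (median 1.45) in untreated spleens, a difference of 2.00 ± 0.38 (limma adjusted p = 0.000396). H4c6 rose by 1.95 ± 0.33 at 7 days, H4c8 by 1.64 ± 0.27 and H4c18 by 1.52 ± 0.32 at 9 days, and H4c1 by 1.27 at 7 days. The H4 family mean stood at 2.48 ± 0.14 at 5 days, 2.98 ± 0.11 at 7 days and 2.91 ± 0.47 at 9 days against 1.68 ± 0.23 in untreated spleens.

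Of 13 H2A genes, 11 were higher at 5 days, 11 at 7 days and 10 at 9 days, with median differences of 0.83, 0.90 and 0.78. H2ac4 changed most: its untreated values ran from -0.16 to 1.04 with a median of 0.39, and its 7-day arrays read 2.08, 1.82, 2.52 and 3.21, with no overlap. That difference was 2.02 ± 0.33, or 4.05-fold (limma adjusted p = 8.08e-05). H2ac1 rose by 1.47 ± 0.34 and H2ac15 by 1.34 at 7 days, and H2ac19 by 1.42 ± 0.24 at 9 days. Of the 13 H2A genes, 8 had their highest group mean at 7 days, 2 at 5 days and 2 at 9 days.

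Among the 5 linker histone genes 2 were higher at 5 days, 3 at 7 days and 4 at 9 days. H1f4 read 4.13, 4.02, 4.68 and 3.60 at 9 days, above all untreated arrays (1.97 to 2.81), and rose by 1.66 ± 0.33 (limma adjusted p = 0.000618). H1f5 rose by 1.55 ± 0.22 and H1f1 by 1.22 at 9 days. After CpG ODN H1f2 was called against untreated at 9 days alone, at 0.57 ± 0.26 against -0.20 ± 0.14 (adjusted p = 0.0323, limma). That call was lost without untreated array 2 or 6 or CpG 9 days array 1, 2 or 3, with adjusted p from 0.0525 to 0.113. H1f6, the testis-specific H1 gene, stayed between -0.065 and 0.48 in its group means and was not called at any time.

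**Figure D3:**
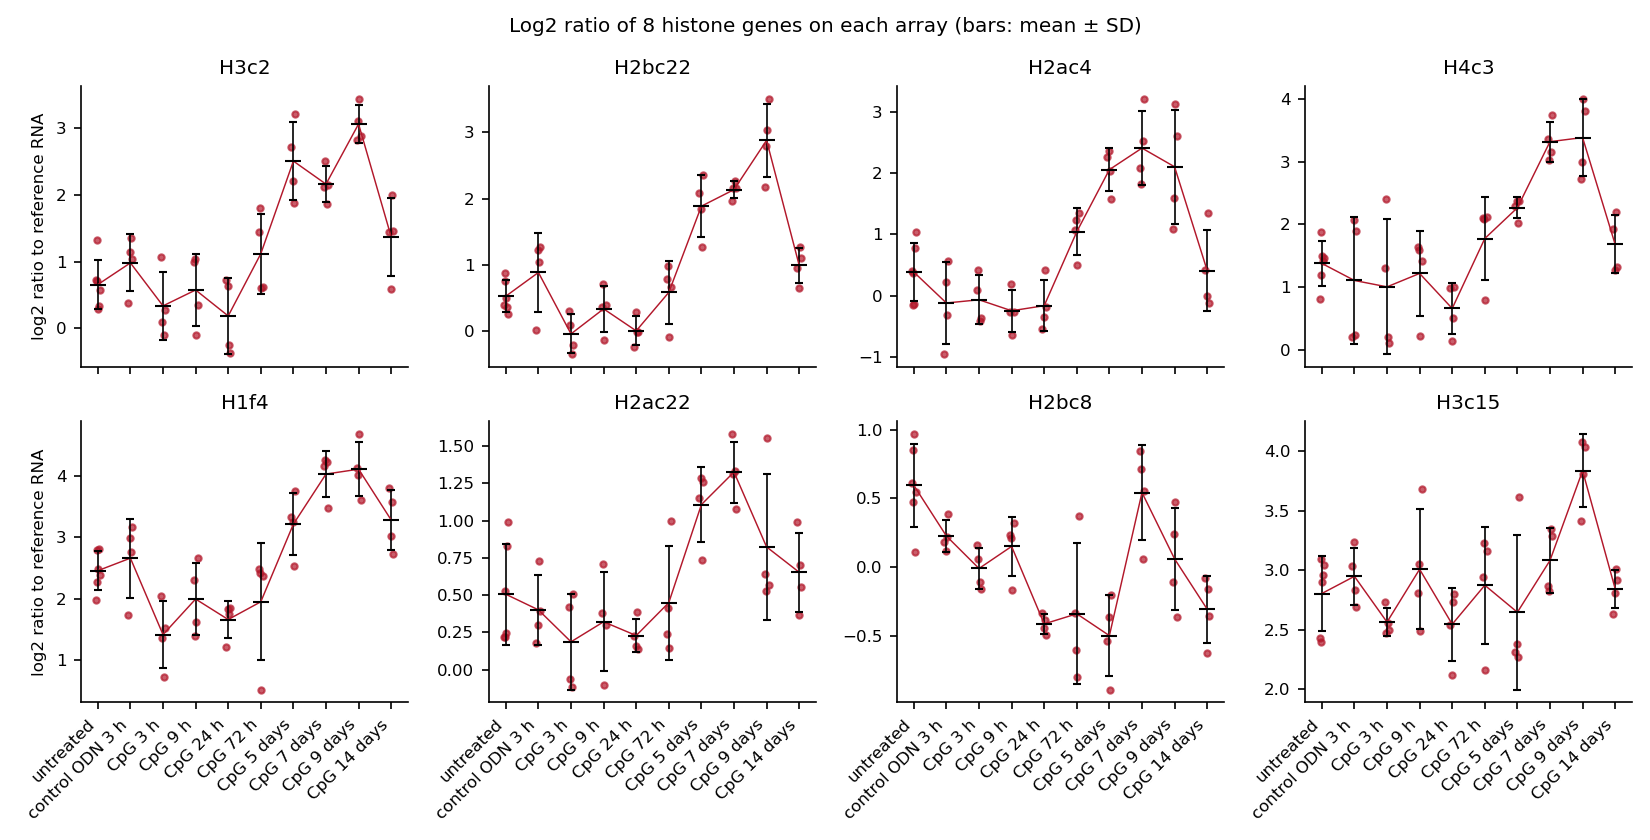
Log2 ratio to the reference (vertical axis, own scale per panel) of 8 members on each array, by group (horizontal axis), with bars for the mean ± SD. H3c2, H2bc22, H2ac4, H4c3 and H1f4 are highest at 7 or 9 days, and H2ac22 comes down at 9 days. H2bc8 was called lower than untreated at 3, 24 and 72 h and at 5, 9 and 14 days, and H3c15 was called higher at 9 days only.

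The H2A and H2B means stood furthest apart at 9 days. From 7 to 9 days the H2B mean went from 2.00 ± 0.17 to 2.44 ± 0.38 and the H2A mean from 1.54 ± 0.12 to 1.34 ± 0.41. Taken per array, the H2B minus H2A difference was 0.13 ± 0.25 in untreated spleens (range -0.26 to 0.41), -0.32 ± 0.47 at 72 h (-0.092 ± 0.13 without array 3), 0.19 ± 0.30 at 5 days, 0.46 ± 0.23 at 7 days, 1.10 ± 0.20 at 9 days (0.89 to 1.35) and 0.35 ± 0.24 at 14 days. All 4 arrays of 9 days lay above every other array, the highest of which, at 7 days, was at 0.76. One run held arrays of both 5 and 9 days, and in it the difference was 0.40 at 5 days (1 array) against 1.00 and 1.18 at 9 days. No test was made on these family means.

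The head-to-head pairs set neighbours that share one promoter stretch side by side. At 9 days the difference from untreated was larger for the H2B gene than for its H2A partner in 6 of 7 pairs, with a median of 1.36 between partners, and at 72 h in 1 of 7, with a median of -0.58 (2 of 7 and -0.37 without array 3). H2ac22 and H2bc22, whose starts are 240 bases apart, differed most. H2ac22 read 0.64, 0.53, 1.55 and 0.57 at 9 days, 3 of them within the untreated range of 0.22 to 0.99, while all H2bc22 values were above theirs. The differences from untreated at 9 days were 0.32 for H2ac22 and 2.35 for H2bc22, and at 7 days 0.82 and 1.60. H2ac15 and H2bc15 stood at 0.95 and 2.30 at 9 days, H2ac12 and H2bc12 at 1.22 and 2.23, H2ac13 and H2bc13 at 0.54 and 2.11, H2ac7 and H2bc7 at 0.56 and 1.95, and H2ac1 and H2bc1 at 1.14 and 1.64. The differences between partners were not tested. Each pair was measured by its own features, and how specific these are for one gene of a near-identical family was not tested.

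**Figure D4:**
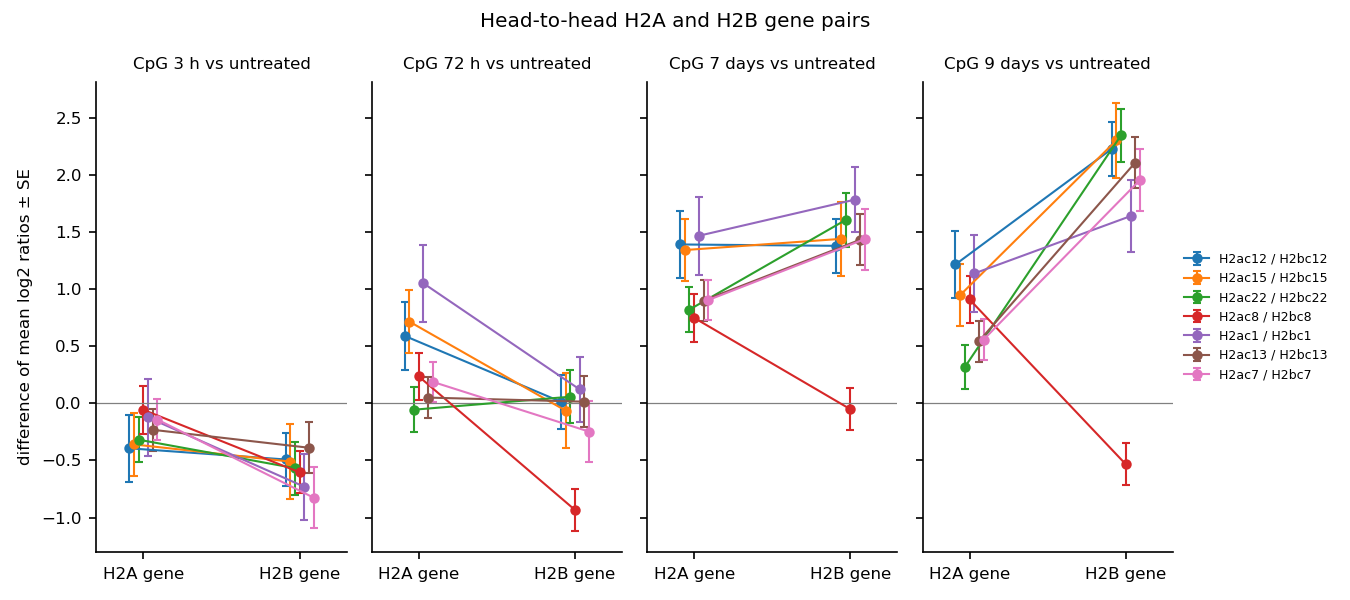
Difference from untreated (mean log2 ratios ± SE of the fit, vertical axis) of the H2A and the H2B gene of 7 head-to-head pairs at 4 times after CpG ODN. At 9 days 6 of the 7 lines rise from the H2A to the H2B gene, and the line of H2ac8 and H2bc8 falls at all 4 times.

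The pair of H2ac8 and H2bc8 went the other way. H2ac8 rose at 5, 7 and 9 days (0.91 at 9 days), and H2bc8, singled out after its values were seen, was below untreated in most groups. Its group means were 0.59 ± 0.30 in untreated spleens, -0.50 ± 0.29 at 5 days, 0.54 ± 0.34 at 7 days, 0.060 ± 0.37 at 9 days and -0.31 ± 0.24 at 14 days. The 5-day arrays read -0.53, -0.36, -0.89 and -0.21, all below the untreated range of 0.11 to 0.97, and the difference was -1.09. At 9 days the difference was -0.53 and at 14 days -0.90, both called by limma (adjusted p = 0.0471 and 0.00422). The 9-day call was lost with run as a random block (adjusted p = 0.0554), with only the arrays compared (0.0728), and without untreated array 1, 3, 4 or 6 or CpG 9 days array 1, 2 or 4 (0.0524 to 0.228). The 14-day call was lost without arrays with over 1000 missing values (-0.81; adjusted p = 0.0817). At 14 days H2bc8 was the 1 member called, and 0 were higher, where 1.77% of all genes were lower and 2.77% higher. As the sequences above show, the H2bc8 window holds the octamer, a CCAAT box on each strand and a TATA box. Of the 12 H2B windows, 5 held the octamer, 7 TATAAA and all CCAAT. A link between these letters and the values was not tested.

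Other members also departed from the rest. Over the 42 arrays the correlation of each member with the mean of the others was 0.97 for H2bc14, 0.96 for H2bc11 and 0.96 for H2bc22. It was -0.065 for H2ac18, 0.15 for H2bc8, 0.40 for H1f6, 0.47 for H1f2 and 0.53 for H3c15 (a description, since the arrays share one reference). H2ac18 stayed between -0.10 and 0.10 in all group means while its near-identical neighbour H2ac19 rose. Its 2 features went opposite ways at 9 days (-0.53 ± 0.26 and 0.68 ± 0.24, neither called), so its average is uncertain. H2bc6, with a mean of -0.097 in untreated spleens, was between -0.44 and 0.081 in all treated groups. H3c7 was at 2.43 ± 0.62 at 7 days against 1.51 ± 0.64 and was not called. For the other members with 2 features, H4c9, H2bc4 and H3c4, both features went up at 9 days.

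Between 72 h and 5 days 13 members were higher and 0 lower, where limma called 1.24% of all genes higher and 2.18% lower. H2B genes made up 6 of the 13 (H2bc7, H2bc9, H2bc12, H2bc13, H2bc15 and H2bc22) and H1 genes 3 (H1f1, H1f4 and H1f5), with H2ac10, H3c2, H3c3 and H3c4. The largest difference was that of H3c2 (1.39 ± 0.32; adjusted p = 0.013). The count was 5 without CpG 72 h array 3, 8 without CpG 72 h array 1, 4 without CpG 5 days array 4, 6 without CpG 5 days array 1 or 2, and 18 without CpG 5 days array 3. The median difference was 0.55 without CpG 72 h array 3 against 0.65 with it. Only 1 member was called without arrays with over 1000 missing values (median 0.61), and 1 when the fit held only the arrays of both groups. Compared within their run, 72 h and 14 days differed in both directions: 5 members were higher at 72 h (H2ac1, H2ac12, H2ac15, H2ac19 and H4c11) and 4 lower (H1f2, H1f4, H2bc6 and H3c4), where 15.5% of all genes were higher and 13.6% lower. These became 3 higher and 1 lower without CpG 72 h array 3, 0 and 5 without CpG 14 days array 2, 2 and 3 without CpG 14 days array 4, and 0 and 1 without arrays with over 1000 missing values.

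Other genes of DNA replication and division were called more often at 5 and 7 days than at 9 days. Of 40 DNA replication genes, 39 were higher at 5 days, 34 at 7 days and 2 at 9 days, with median differences of 1.02, 0.91 and 0.35 and 0 lower at each time. Of 25 mitosis genes 22, 23 and 12 were higher, with medians of 1.21, 1.23 and 0.71. Over all genes, limma called 17.5%, 8.68% and 8.4% higher at these times. The replication mean lay between 0.70 and 0.84 on the 7-day arrays and between 0.044 and 0.54 on the 9-day arrays, without overlap, while the histone mean was 2.02 to 2.19 and 1.78 to 2.65. The 7-day and 9-day arrays shared no run, so run and time cannot be told apart between them. Pcna, the sliding clamp of the replication fork, was up by 1.06 ± 0.21 at 5 days and 1.00 ± 0.21 at 7 days and stood at 0.33 ± 0.21 at 9 days (limma adjusted p = 0.000215, 0.000944 and 0.315). Mcm5, of the replicative helicase, was up by 1.33, 1.09 and 0.39 (the last not called), and Ccna2, an S and G2 phase cyclin, by 1.45, 1.50 and 0.69 (the last not called). Rrm2, of ribonucleotide reductase, was up by 0.74 at 5 days and 0.60 at 9 days, and Mki67, a proliferation marker, by 2.10 at 7 days.

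Of 25 genes of histone transcription and 3′ end processing, 12 were higher and 2 lower at 5 days, 5 and 1 at 7 days, and 2 and 3 at 9 days. Of all genes, 17.5%, 8.68% and 8.4% were higher at these times and 13.4%, 6.89% and 5.12% lower. The count of higher genes at 9 days is thus near the share over all genes. Slbp, which binds the stem-loop, was up by 1.10 ± 0.25 at 5 days and 1.09 ± 0.25 at 7 days and stood at 0.32 ± 0.25 at 9 days (limma adjusted p = 0.00109, 0.00252 and 0.443). Casp8ap2 and Lsm11, parts of the histone locus body and the U7 particle, were up at 5 days by 0.74 and 0.79. Npat, the histone transcription coactivator, differed by -0.13, 0.33 and -0.22 at 5, 7 and 9 days and Zfp473 by 0.31, 0.17 and 0.13, none called. Ccne1, which with Cdk2 drives entry into S phase, was up by 0.96 at 5 days and 0.71 at 9 days, and Ccne2 by 1.68 and 1.56 at 5 and 7 days. Tut4, a uridyl transferase, fell by 1.09, 0.74 and 0.69 at 5, 7 and 9 days, and the exonuclease gene Xrn1 fell by 0.65 at 5 days and 0.72 at 9 days.

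Of 24 chaperone and chromatin assembly genes, 11 were higher at 5 days, 6 at 7 days and 4 at 9 days, and 0, 0 and 1 lower. The shares over all genes were 17.5%, 8.68% and 8.4% higher and 13.4%, 6.89% and 5.12% lower. Asf1b, which hands H3 and H4 to the assembly factor, was up by 1.69 ± 0.21, 1.41 ± 0.21 and 0.61 ± 0.21 at the 3 times (limma adjusted p = 3.46e-07, 3.39e-05 and 0.045). Chaf1a and Chaf1b, subunits of that factor, were up by 1.37 and 1.28 at 5 days and 0.88 and 0.52 at 7 days, and Nasp, an H3 and H1 chaperone, by 0.92 at 5 days. Among 9 replication-independent histones, 5, 5 and 2 were higher. H2ax, which carries the mark of DNA breaks and has both kinds of 3′ end, rose by 1.16, 1.35 and 1.17, all called. H2az1 rose by 0.79 at 5 days alone, H3f3a was not called at any of these times, and H3f3b rose by 0.50 at 7 days.

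Cell type markers moved over the same days (list means are over the markers measured on all arrays). At 5, 7 and 9 days limma called 17.5%, 8.68% and 8.4% of all genes higher and 13.4%, 6.89% and 5.12% lower. All 4 early myeloid markers (Mpo, Elane, Prtn3 and Ctsg) were higher at 5, 7 and 9 days, and the list mean rose from 0.82 to 1.66 on untreated arrays to 3.92 to 4.67 on 9-day arrays. All 5 neutrophil markers were higher at 9 days, with list means of 6.44 to 6.69 against 2.84 to 4.11, and this list remained at 5.86 to 6.50 at 14 days, when the histones were near untreated levels. T-cell markers were lower, 4 of 4 at 5 days and 3 of 4 at 9 days, and the list mean was 0.73 to 1.20 at 5 days against 1.93 to 2.56. The erythroid list mean, over 3 genes only, was 3.64 to 4.70 at 9 days against 3.61 to 4.71, with 1 of 4 genes higher (Rhag). So short a list does not stand for all erythroid genes. Megakaryocyte markers were higher in 3 of 3 at 9 days. Pancreas acinar markers varied from array to array, with list means of 1.05 to 5.05 in untreated spleens and 0.65 to 4.63 at 9 days, and 0 of 4 were called. Control ODN array 1, low in histones, had the highest acinar mean of its group (6.41), and so did CpG 72 h array 3 (4.04). CpG 5 days array 3 had the highest acinar mean (4.93) and the lowest histone mean (1.54) of its group. CpG 7 days array 3 had the highest of both in its group (4.44 and 2.19). On CpG 3 h arrays 3 and 1 the acinar mean was 5.27 and 4.99, with histone means of 0.27 and 0.77. On CpG 9 h arrays 3 and 2 it was 5.15 and 5.33, with histone means of 0.22 and 0.92. A link between acinar and histone means was not tested. B-cell markers were lower in 2, 2 and 1 of 4 at the 3 times and plasma cell markers in 2, 1 and 0 of 4. Testis germ cell markers had group means from -0.94 to -0.21, and 1 of 3 was higher at 9 days. The part of these cell types in the histone values was not tested.

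The 8 genes outside the histones whose values were most like the histone mean over the 42 arrays, among 12541 genes ranked, were Trak2 (r = 0.92), Spire1 (0.92), Mxi1 (0.92), Dpf3 (0.91), Xk (0.91), Sox6 (0.91), Ubp1 (0.91) and Specc1 (0.90). They were chosen for this likeness, and the arrays share one reference, so these are descriptions. At 9 days they stood between 0.48 (Ubp1) and 1.71 (Sox6) above untreated. Which spleen cells express these genes was not examined.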

How the data were processed

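The deposited values are log2 ratios of spleen (Cy5) over reference (Cy3) as the authors made them. Base and direction were inferred from the range and from spleen genes, and the normalization within arrays is not given in the sources used here. Features were paired with genes through the array's annotation, 23485 of 30601 features having 1 symbol, and averaged per symbol. One linear model per gene, with a mean for each of the 10 groups, was fitted to the 42 arrays together (limma 3.58.1, R 4.3.3). A gene was tested with at least 3 values in each group and called at a 2-sided Benjamini-Hochberg adjusted p below 0.05 over all genes. The fit was tested on simulated data. A difference is followed by ± its standard error, a mean by ± the SD. Per the series text replicates are independent biological samples. Runs are arrays whose database numbers lie within 12 of the next.

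Named members are the 24 called ones with the largest difference from untreated, each family's highest and lowest untreated ratio, and those whose features disagree. Further members were named after their values were seen. Other genes are a panel, list members and the 8 most like the histone mean. Members, lists and the panel were chosen with earlier results of these data known. Alternatives changed scaling, centring, filters, features, spread, weights, arrays fitted, blocks and threshold. Promoter windows come from RefSeq (GRCm38.p6) by gene ID. No genome or protein table was used. Figures used matplotlib.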

Additional observations from a re-analysis of the deposited data

Results flagged for a closer look

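In 375 sets of arrays (the member mean, the 5 family means the members named by the rule and H2bc8, each in up to 10 groups), 25 had an array far from the others, judged by its gap to the next value relative to the range. Chance alone marks about 1 in 20 such sets.

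Array 3 of CpG 72 h was the low one in 9 of them: the H2B mean (-0.29 against 0.80 for the next array), H1f4 (0.51), H2bc1 (0.041), H2bc15 (-0.51), H2bc3 (-0.95), H2bc9 (0.58), H3c11 (1.42), H4c3 (0.80) and H4c6 (0.58). Array 1 of control ODN was low in the H3 mean (0.63), H2bc12 (0.020) and H3c11 (0.66). Array 3 of CpG 9 h was low in H2bc14 (-0.50) and H4c3 (0.23).

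Array 4 of CpG 5 days was high in H1f2 (0.87) and H3c15 (3.62), the latter against 2.38 for the next array, and array 4 of CpG 7 days was low in H1f4 (3.48) and H2ac15 (2.29). At 7 days array 3 was high in the H1 mean (1.85) and array 2 low in H1f5 (1.40). At 24 h array 2 was high in the member mean (0.71) and array 1 low in H1f4 (1.21). Array 3 of CpG 9 days was high in H3c6 (0.83). Among untreated arrays, array 1 was low in H2bc1 (0.30) and array 2 high in H4c18 (2.06). No cause of these was tested.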

How the results depend on the processing

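The counts at 5, 7 and 9 days kept their direction and stayed within 1.5 times under every alternative that could be fitted, as did the F test (49 members). Smaller counts moved. With the replicate block 1 member was called at 3 h, 1 at 24 h, 1 at 72 h and 0 for control ODN. Replicate numbers did not pair the arrays (mean correlation of deviations 0.041 for the same number and -0.012 for others, 63 of 180 pairs over 0.1). Scaled to the same spread, 5 members were called at 72 h, 0 for control ODN, 5 for CpG 3 h against control ODN and 15 for 72 h against 24 h. Quantile normalization gave 5 at 24 h and 0 for control ODN, and single features 2 at 14 days. Array weights gave 12 at 3 h, 3 at 9 h, 15 at 72 h, 2 for control ODN, 22 for 72 h against 24 h, 24 for 5 days against 72 h and 15 for 72 h against 14 days. With only the arrays compared there were 12 at 3 h, 1 at 9 h, 10 at 24 h, 2 at 14 days, 0 for control ODN, 6 for CpG 3 h against control ODN and 1 for 5 days against 72 h. Run as a fixed block gave 1 at 3 h and 0 at 24 h, with median differences of -0.87, -1.02 and -1.06 at 3, 9 and 24 h, and as a random block 0 for control ODN. Without arrays with over 1000 missing values there were 1 at 9 h, 0 at 14 days, 0 for control ODN, 11 for 72 h against 24 h, 1 for 5 days against 72 h, 1 for 72 h against 14 days and 10 for 7 against 14 days (median 0.74). At an adjusted p below 0.01 there were 0 at 3 h, 1 at 24 h, 1 at 72 h, 0 for control ODN, 3 for CpG 3 h against control ODN, 1 for 72 h against 24 h, 4 for 5 days against 72 h and 4 for 72 h against 14 days. Against control ODN of the same run, added after the data were seen, 72 h gave 6 and 7 days a median of 1.17.

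With 1 array left out the counts ranged from 0 to 4 at 3 h, 0 to 1 at 9 h, 1 to 3 at 24 h, 1 to 5 at 72 h, 31 to 39 at 5 days, 41 to 43 at 7 days, 33 to 45 at 9 days, 0 to 2 for control ODN, 4 to 15 for CpG 3 h against control ODN, 1 to 10 for 72 h against 24 h, 4 to 18 for 5 days against 72 h, 4 to 10 for 72 h against 14 days and 25 to 40 for 7 against 14 days. The count at 14 days was 1 each time, and the F test called 47 to 50. For each comparison only arrays of its own groups were left out. With 1 array left out no median difference moved by more than the spread between replicates. The run block could not be fitted for 9 of the 14 comparisons or the F test, whose groups no shared runs connect, nor the F test without arrays with over 1000 missing values. The number of arrays limits what can be called.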

Other observations

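Histone features that name more than 1 gene, or a histone symbol outside the clustered nomenclature, were not among the 52 members. The feature shared by H2bc21 and H3c2 rose by 0.76 ± 0.17 at 5 days, 0.77 ± 0.17 at 7 days and 1.05 ± 0.17 at 9 days (limma on single features, adjusted p = 0.000786, 0.0014 and 6.09e-05). The feature of H2ac11 and H2ac7 rose by 0.73, 0.73 and 0.49 at these times, all called. The feature of H2bc21 and H2bc18 was lower at 3 h (-0.57 ± 0.16), 9 h (-0.94 ± 0.16) and 24 h (-0.68 ± 0.16) and higher at 5 days (0.48 ± 0.16; limma adjusted p = 0.0131, 4.81e-05, 0.00377 and 0.0201). That of H3c10 and H3c2 was lower at 5 days (-0.52 ± 0.12; adjusted p = 0.00174), although H3c2's own feature had its second-highest group mean then. At 9 days, when H3c2's own feature was highest, the shared one stood at 0.25 against 0.30 in untreated spleens.

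Outside the nomenclature, H4f16 rose by 1.63 ± 0.35 at 9 days (adjusted p = 0.00194), from 1.29 ± 0.56 to 2.92 ± 0.43, and H2bu2 by 0.72 ± 0.18 (adjusted p = 0.00614), from 2.95 ± 0.35 to 3.68 ± 0.28. H2aj, H2aw and H2bl1 were not called at 9 days, with differences of -0.22, 0.12 and 0.15. These features were singled out after their values were seen.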
